A study of Homo sapiens with 4 samples.

Results

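The genes described here are 29 genes of cholesterol and fatty acid synthesis, chosen by name as enzymes or regulators of the pathway that the sterol regulatory element binding proteins (SREBPs) switch on. Their probes were found through the RefSeq accession that the array gives for each probe, and all 29 were measured, among 18919 genes with a retained probe. They comprise 17 genes of sterol synthesis (ACAT2, HMGCS1, MVK, PMVK, MVD, IDI1, FDPS, FDFT1, SQLE, LSS, CYP51A1, TM7SF2, NSDHL, HSD17B7, EBP, SC5D and DHCR7), 4 of uptake and feedback (INSIG1, SREBF1, SREBF2 and STARD4) and 8 of fatty acid synthesis (FASN, SCD, ACACA, FADS1, FADS2, ELOVL6, ACLY and ACSS2). The study used HCT116, a human colorectal carcinoma cell line. Cells that passed through the membrane of a transwell chamber towards serum are called MG cells, those that stayed behind are called non-MG cells, and this sorting was done 5 times. Each population then received 5-azacytidine, an inhibitor of DNA methyltransferases, at 5 µM for 48 h, or vehicle. The 4 groups are therefore non-MG cells with vehicle, non-MG cells with 5-azacytidine, MG cells with vehicle and MG cells with 5-azacytidine. The labels give no further replicate, and each group has 1 one-colour array, so no difference between groups could be tested, and values are given with errors that cover spotting and scanning only.

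SREBPs are transcription factors held in the endoplasmic reticulum together with SCAP. When membrane sterols are low, they travel to the Golgi, are cut free of the membrane and turn on genes that carry a sterol regulatory element, usually next to a CCAAT box or a GC box. When sterols are plentiful, INSIG proteins keep the complex in place. SREBF2 mainly drives the genes of cholesterol synthesis and uptake, and SREBF1 mainly those of fatty acid synthesis.

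All 7 epithelial marker genes examined (EPCAM, KRT8, KRT18, KRT19, CDH1, CLDN4 and CLDN7) passed background on every array, as the label of a carcinoma line implies. Of 6 fibroblast markers, 5 were above background on no array and COL1A1 was above it on all 4. PTPRC, CD3E, PECAM1 and CDH5, which define leukocytes and endothelium, were above background on no array, while CD68 and VWF were. Between 21384 and 21882 of 50594 probes were well above background per array. All 29 lipid genes passed background on every array, through 34 probes with intensities from 17.9 to 7202, and no spot was saturated. The slide held non-MG cells in row 1 and MG cells in row 2, with vehicle in column 3 and 5-azacytidine in column 4, so position and group cannot be told apart.

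A level below is the log2 of the background-corrected intensity minus the 75th percentile of its array, averaged over the spots of a probe. A ratio is a difference between 2 such levels, averaged over the probes of a gene, and a gene is counted as higher or lower past 1.5-fold when its log2 ratio exceeds 0.585 in size. The error printed after a ratio is the spot error. It starts from the median SD between repeated spots of probes with 10 spots at the same intensity. That SD was reduced by the number of spots and combined over the 2 arrays and the probes of a gene. The spot error is thus an error of the ratio and does not use the spread of the probe's own spots. Over the members the spot error ran from 0.03 to 0.34 with a median of 0.08. The error that the scanner software itself assigns was larger, with a median of 0.20 per ratio. Neither error contains the difference between cultures. Levels of different genes come from different probes and cannot be ranked.

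In MG cells most of these genes gave a weaker signal than in non-MG cells, by a small amount each. With vehicle, 23 of 29 were below 0 in the log2 ratio between MG and non-MG cells, with a median log2 ratio of -0.17. RNA was taken from whole cultures, so fewer cells with a transcript and less of it per cell cannot be told apart. With 5-azacytidine, 24 of 29 were below 0 and the median was -0.22. Among the 15017 genes whose signal passed background on every array, 50.9% were below 0 with vehicle and 47.9% with 5-azacytidine, with medians of -0.01 and 0.02. The 2 comparisons share no array, and 21 of 29 members were below 0 in both, against 38.6% of the 15017 genes. EBP, NSDHL and FADS2 were above 0 in both, and the other 5 members changed sign (ACAT2, PMVK, SC5D, FADS1 and ACLY). The members were chosen with earlier results of these data known, so these counts are a description and not independent support. Other genes of sterol synthesis, uptake and feedback, and fatty acid synthesis, described below, had medians of -0.19, -0.11 and -0.23 with vehicle. With 5-azacytidine their medians were -0.06, 0.01 and 0.01. When arrays were centred on the median in place of the 75th percentile, the members' medians became 0.02 and 0.04, and 12 and 13 of 29 were below 0. That centring raised the median of all genes by 0.20 and 0.26, so the members' median stayed below that of all genes by the same amount under both scalings, -0.14 with vehicle and -0.21 with 5-azacytidine.

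Few of the differences were large. With vehicle, 3 members were lower in MG cells past 1.5-fold (TM7SF2, INSIG1 and STARD4), where 8.05% of the 15017 genes were, and 0 were higher, where 5.67% were. With 5-azacytidine, 5 members were lower (HMGCS1, INSIG1, SREBF2, STARD4 and ACSS2), where 7.13% of genes were, and 0 were higher, where 5.73% were. INSIG1 and STARD4 passed in both, against 3.68% of the 15017 genes. A count of 3 in 29 with vehicle is close to the share of all genes. The 5 of 29 with 5-azacytidine is 17.2%. The counts of lower members and the shares of lower genes both fell under median centring and after normexp background correction. With 5-azacytidine, 0 members and 2.44% of the 15017 genes were lower past 1.5-fold under median centring, and 1 member and 1.13% after normexp background correction. With vehicle, 1 member passed under each, beside 3.72% and 2.06% of genes. Under quantile normalization with vehicle, 5 members and 7.18% of genes were lower, so there the count rose while the share fell.

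**Figure D1:**
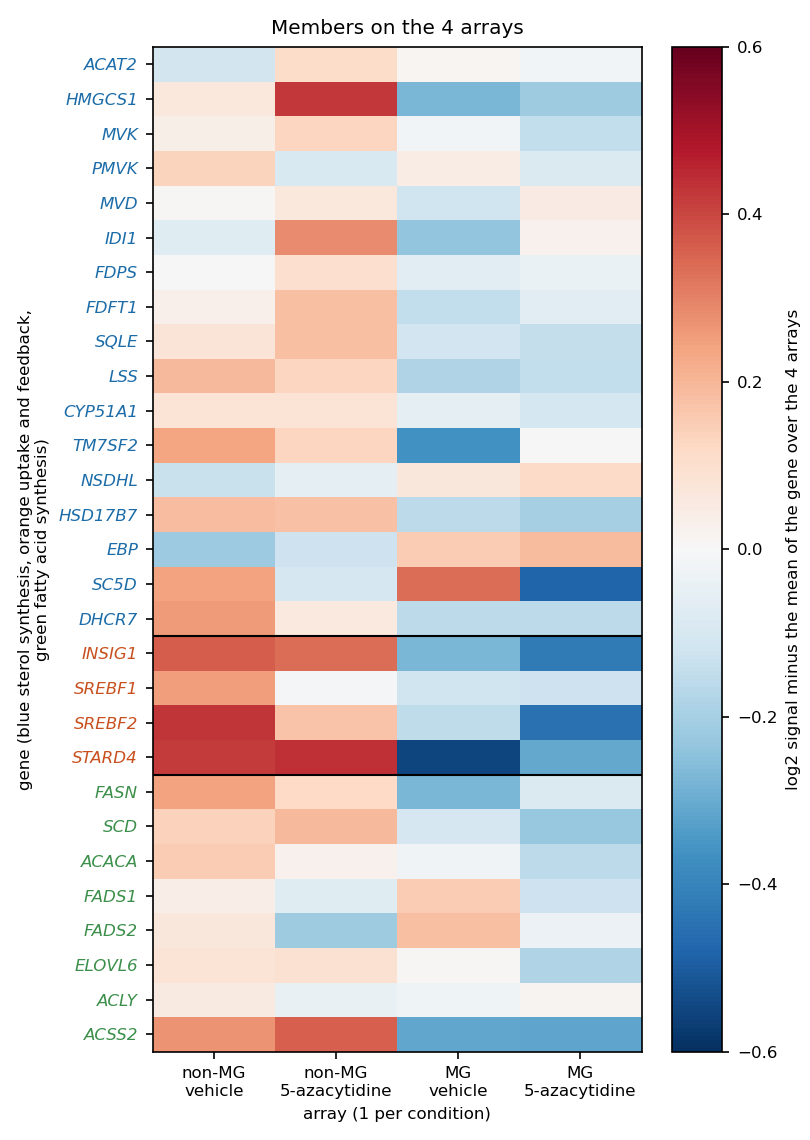
Heat map of the 29 members (rows) on the 4 arrays (columns), with colour giving the log2 level minus the mean of that gene over the 4 arrays. The rows of STARD4, INSIG1, SREBF2 and ACSS2 are red on both non-MG arrays and blue on both MG arrays, EBP and NSDHL show the opposite, and most other rows are pale.

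The 4 uptake and feedback genes lay lowest as a group. Their median MG/non-MG log2 ratio was -0.61 with vehicle and -0.68 with 5-azacytidine, and none was above 0 in either, apart from SREBF1 with 5-azacytidine under median centring (0.14). Under that centring the group medians were -0.41 and -0.43. STARD4 encodes a soluble protein that carries cholesterol between membranes. Its level was 1.41 in non-MG cells with vehicle, 1.43 in non-MG cells with 5-azacytidine, 0.44 in MG cells with vehicle and 0.68 in MG cells with 5-azacytidine. Both MG arrays lay under both non-MG arrays. The log2 ratio was -0.97 ± 0.11 with vehicle, or 1.96-fold lower, and -0.75 ± 0.11 with 5-azacytidine, or 1.68-fold lower. STARD4 was the single member that stayed past 1.5-fold with vehicle under each scaling and background correction tried, but with 5-azacytidine it read -0.36 after normexp and -0.49 under median centring.

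INSIG1 encodes the endoplasmic reticulum protein that retains SREBPs when sterols are abundant, and is itself a target of SREBPs. Its level was 3.65 and 3.62 in non-MG cells with vehicle and with 5-azacytidine, and 3.01 and 2.86 in MG cells. The 2 arrays of each cell type lay closer to each other than to those of the other type. The log2 ratio was -0.64 ± 0.08 with vehicle, 1.55-fold lower in MG cells, and -0.76 ± 0.08 with 5-azacytidine, 1.69-fold lower. It fell short of the threshold with vehicle after normexp (-0.56) and with both treatments under median centring (-0.44 and -0.50).

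SREBF2 encodes the SREBP of the cholesterol branch. Its level was 3.30 in non-MG cells with vehicle, 3.04 in non-MG cells with 5-azacytidine, 2.71 in MG cells with vehicle and 2.42 in MG cells with 5-azacytidine. The 2 cell types did not overlap, and the array with 5-azacytidine was the lower one in each. The MG/non-MG log2 ratio was -0.58 ± 0.08 with vehicle, just under the threshold, and -0.62 ± 0.08 with 5-azacytidine, or 1.54-fold lower. Quantile normalization moved the vehicle ratio to -0.62 and so past it.

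SREBF1 encodes the SREBP of the fatty acid branch and has 2 probes here. The brighter one gave 6.37 and 6.08 in non-MG cells with vehicle and with 5-azacytidine, and 5.93 and 5.89 in MG cells. The dimmer one gave 0.73 and 0.50 in non-MG cells, and 0.43 and 0.46 in MG cells. On both probes the non-MG array with vehicle was the highest. The MG/non-MG log2 ratio averaged -0.37 ± 0.06 with vehicle and -0.12 ± 0.07 with 5-azacytidine, neither past 1.5-fold.

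**Figure D2:**
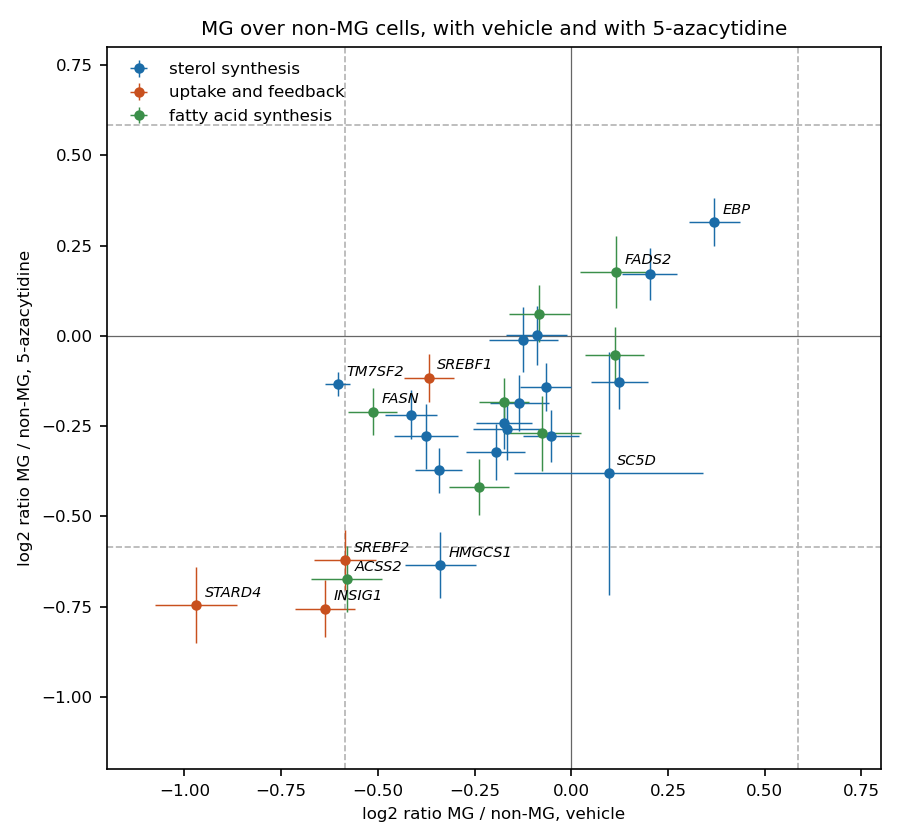
MG/non-MG log2 ratio with vehicle (horizontal axis) and with 5-azacytidine (vertical axis) for the 29 members, coloured by group, with bars for the spot error and dashed lines at 1.5-fold. STARD4 and INSIG1 lie past the lower dashed line on both axes, 21 of 29 points lie at the lower left, below 0 on both axes, and no point reaches the upper dashed lines.

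The promoters of STARD4, INSIG1 and SREBF2, the members of the feedback group that passed 1.5-fold, and of HMGCS1, the sterol synthesis enzyme that passed with 5-azacytidine, are shown with the motifs that SREBPs and their usual partners read. Each line gives the 250 bases before the start in RefSeq on GRCh38.p14, written 5′ to 3′ along the gene's strand. Capitals mark the sterol regulatory element TCACNCCAC, the CCAAT box (CCAAT, or ATTGG on the opposite strand) and the E-box CACGTG. SREBF2 lies at chr22:41832855-41833104 on the plus strand, INSIG1 at chr7:155297628-155297877 on the plus strand, STARD4 at chr5:111512536-111512785 on the minus strand, and the more upstream of 2 starts of HMGCS1 at chr5:43313413-43313662 on the minus strand.
SREBF2: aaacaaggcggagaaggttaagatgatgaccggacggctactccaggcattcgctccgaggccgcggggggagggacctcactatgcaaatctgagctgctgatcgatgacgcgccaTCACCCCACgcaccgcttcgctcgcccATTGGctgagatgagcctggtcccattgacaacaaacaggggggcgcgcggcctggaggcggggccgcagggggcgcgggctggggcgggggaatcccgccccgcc
INSIG1: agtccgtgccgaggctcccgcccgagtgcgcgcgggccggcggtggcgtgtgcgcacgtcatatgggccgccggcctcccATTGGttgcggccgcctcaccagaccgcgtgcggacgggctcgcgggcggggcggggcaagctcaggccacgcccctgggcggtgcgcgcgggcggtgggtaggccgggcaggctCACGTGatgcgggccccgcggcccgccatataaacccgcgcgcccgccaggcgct
STARD4: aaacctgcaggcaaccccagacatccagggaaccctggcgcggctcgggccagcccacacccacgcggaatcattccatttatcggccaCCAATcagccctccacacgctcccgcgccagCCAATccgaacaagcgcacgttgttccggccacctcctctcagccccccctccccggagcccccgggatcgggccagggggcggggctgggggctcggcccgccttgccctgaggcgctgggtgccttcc
HMGCS1: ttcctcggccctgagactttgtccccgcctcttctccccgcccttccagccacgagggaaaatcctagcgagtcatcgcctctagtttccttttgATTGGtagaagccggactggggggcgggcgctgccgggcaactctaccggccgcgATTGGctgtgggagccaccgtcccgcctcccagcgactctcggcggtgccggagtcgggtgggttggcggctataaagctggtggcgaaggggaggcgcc
A promoter window of 300 bases, 250 before the start and 50 after it, was held for 25 of the 29 members in 35 windows, since some genes have several starts. No window was held for ACAT2, FDFT1, SQLE and FASN. All 4 motifs were searched on both strands, and none of the 4 letter strings contains another. The letters TCACNCCAC occurred in 1 of the 35 member windows (2.86%) and in 1.13% of all 35116 windows. That window is the one of SREBF2, which holds them from position -133 to -125 counted from the start, with a CCAAT box from -106 to -102. CCAAT occurred in 24 of the 35 member windows (68.6%) and in 34.6% of all windows. The GC box GGGCGG occurred in 31 of 35 (88.6%) and in 45.0% of all. The E-box CACGTG occurred in 4 of 35 (11.4%) and in 7.26% of all. Those windows belong to INSIG1, where it begins at position -55, LSS and SC5D. Windows of 1 gene can overlap, as those of SC5D do, so 1 site can be counted more than once. By gene, TCACNCCAC occurred in 1 of 25 members and 1.39% of all 27305 genes with a window, and CCAAT in 20 of 25 and 39.7%. The GC box occurred in 24 of 25 and 48.3%, and the E-box in 3 of 25 and 8.77%. Members within 1.5-fold in every comparison, such as MVK and NSDHL, also hold CCAAT boxes. A match of letters is a description of the sequence and does not show binding. Only these exact letters were searched, and only within the windows, so a missing match does not show that an element is absent.

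**Figure D3:**
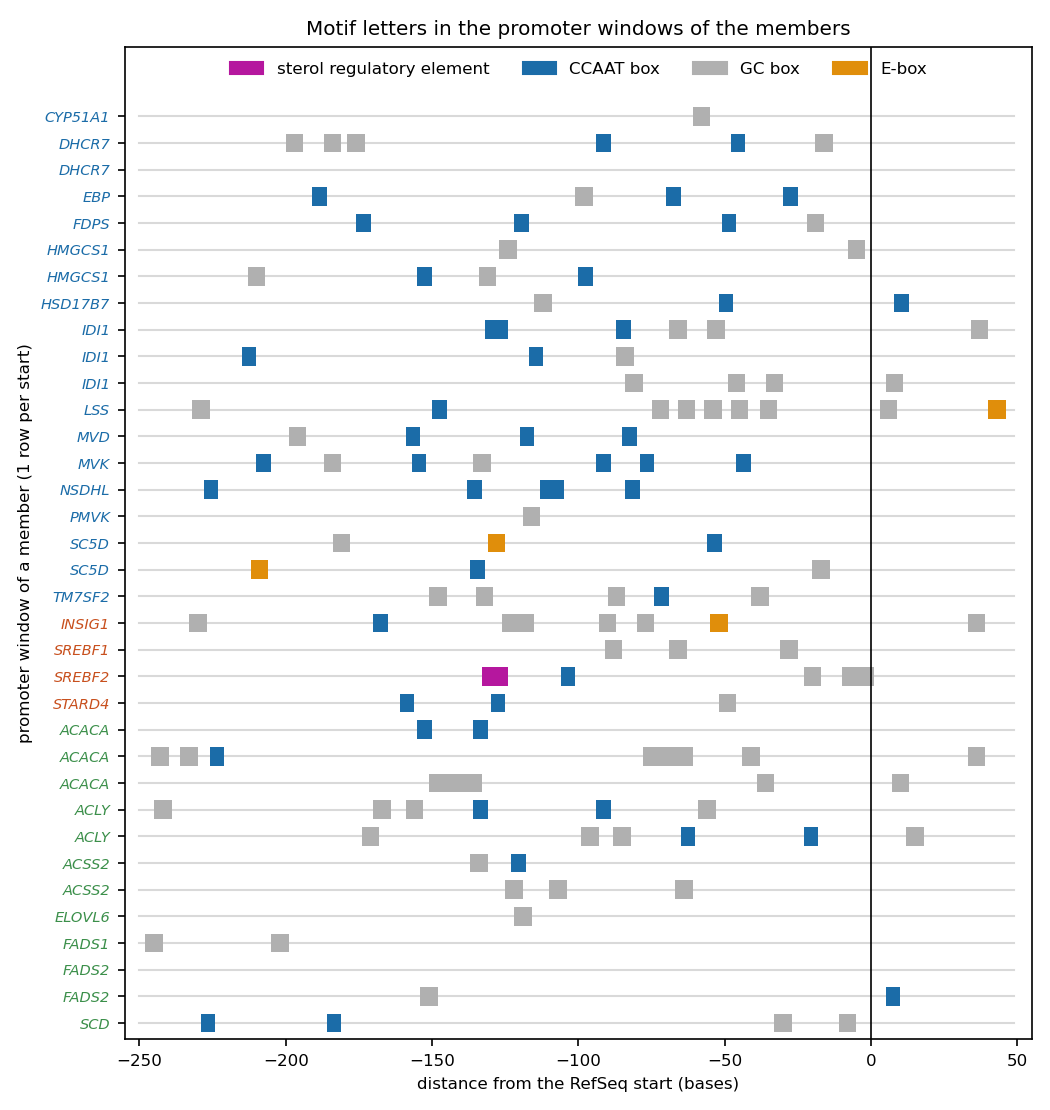
Position of 4 motifs in the 35 promoter windows of 25 members (rows, 1 per start), with distance from the RefSeq start in bases on the horizontal axis. The single match to the sterol regulatory element letters TCACNCCAC is in SREBF2, and CCAAT boxes (blue) appear in 24 windows, mostly between -200 and the start.

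The 17 sterol synthesis enzymes had a median MG/non-MG log2 ratio of -0.13 with vehicle and -0.22 with 5-azacytidine, which median centring turned to 0.06 and 0.04. With vehicle 13 were below 0 and 1 was lower past 1.5-fold, where 50.9% and 8.05% of the 15017 genes were. With 5-azacytidine 14 were below 0 and 1 was lower past 1.5-fold, where 47.9% and 7.13% of genes were. HMGCS1 makes HMG-CoA, the starting unit of the mevalonate pathway. Its level was 1.94 in non-MG cells with vehicle, 2.31 in non-MG cells with 5-azacytidine, 1.61 in MG cells with vehicle and 1.67 in MG cells with 5-azacytidine. Both non-MG arrays lay over both MG arrays, and the array of non-MG cells with 5-azacytidine stood highest. The MG/non-MG log2 ratio was -0.34 ± 0.09 with vehicle and -0.64 ± 0.09 with 5-azacytidine, or 1.55-fold lower. After normexp the latter was -0.43 and under median centring -0.38.

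The enzymes that follow HMGCS1 in the mevalonate pathway differed little. MVK, PMVK and MVD, which carry out the phosphorylation and decarboxylation of mevalonate, had ratios of -0.05, -0.09 and -0.12 with vehicle and of -0.28, 0.00 and -0.01 with 5-azacytidine. IDI1, which isomerizes the isoprene unit, was at -0.17 and -0.26, and FDPS, which joins these units, at -0.07 and -0.14. FDFT1 and SQLE, which form squalene and its epoxide, were at -0.17 and -0.20 with vehicle and at -0.24 and -0.32 with 5-azacytidine. ACAT2, which supplies acetoacetyl-CoA, was at 0.12 and -0.13. FDPS has several pseudogenes, and the signal of its probe may include them.

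Beyond squalene the enzymes diverged more. TM7SF2, a sterol reductase, was spotted 10 times on each array. Its level was 1.39 in non-MG cells with vehicle, 1.29 in non-MG cells with 5-azacytidine, 0.79 in MG cells with vehicle and 1.15 in MG cells with 5-azacytidine. The array of MG cells with vehicle stood apart, and its 10 spots, from 0.36 to 1.02, all lay under the 10 spots of non-MG cells with vehicle, from 1.34 to 1.47. The MG/non-MG log2 ratio was -0.60 ± 0.03 with vehicle, or 1.52-fold lower, and -0.13 ± 0.03 with 5-azacytidine. Spots of TM7SF2 on the MG array with vehicle had an SD of 0.18, against 0.04 to 0.08 on the others, and normexp reduced the vehicle ratio to -0.41.

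EBP and NSDHL, which act on the sterol ring and its methyl groups, ran the other way. The level of EBP was 5.43 and 5.53 in non-MG cells with vehicle and with 5-azacytidine, and 5.80 and 5.84 in MG cells, so both MG arrays lay over both non-MG arrays. EBP was higher in MG cells by 0.37 ± 0.07 with vehicle and 0.32 ± 0.07 with 5-azacytidine. NSDHL was higher by 0.20 ± 0.07 and 0.17 ± 0.07. Neither reached 1.5-fold.

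LSS, which closes squalene epoxide into the sterol ring, was read by 2 probes that disagreed. One gave levels of 2.73 and 2.97 in non-MG cells and 2.77 and 2.86 in MG cells, with a ratio of 0.04 with vehicle. The other, much dimmer, gave 0.03 and -0.34 in non-MG cells and -0.76 and -0.79 in MG cells, with a ratio of -0.79. Their mean of -0.38 therefore describes neither probe. HSD17B7, a sterol ketoreductase with a near-identical pseudogene, was at -0.34 with vehicle and -0.37 with 5-azacytidine over 3 probes, each of which was below 0 in both comparisons. DHCR7, the last enzyme before cholesterol in 1 branch, was at -0.41 and -0.22, and CYP51A1, which removes a methyl group from lanosterol, at -0.13 and -0.19.

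The 8 fatty acid synthesis genes had a median ratio of -0.13 with vehicle and -0.20 with 5-azacytidine, with 6 below 0 in each, which median centring turned to 0.07 and 0.06 with 3 below 0 in each. ACSS2 turns acetate into acetyl-CoA. Its level was 2.17 in non-MG cells with vehicle, 2.26 in non-MG cells with 5-azacytidine, 1.59 in MG cells with vehicle and 1.58 in MG cells with 5-azacytidine. The 2 cell types were well separated and treatment made little difference within either. The MG/non-MG log2 ratio was -0.58 ± 0.09 with vehicle, just under 1.5-fold, and -0.67 ± 0.09 with 5-azacytidine, or 1.59-fold lower. The latter became -0.52 after normexp and -0.42 under median centring.

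FASN encodes fatty acid synthase, which builds palmitate. Its level was 6.07 and 5.95 in non-MG cells with vehicle and with 5-azacytidine, and 5.56 and 5.74 in MG cells, with both MG arrays under both non-MG arrays. FASN was at -0.51 ± 0.06 with vehicle and -0.21 ± 0.06 with 5-azacytidine, within 1.5-fold in both. SCD, the desaturase that makes oleate, was at -0.24 and -0.42. ACACA, which makes malonyl-CoA, was at -0.17 and -0.18 as a mean of 2 probes, of which the dimmer was at -0.12 and 0.06 and the brighter at -0.23 and -0.42. ACLY, which makes cytosolic acetyl-CoA from citrate, ELOVL6, which lengthens palmitate, and the desaturases FADS1 and FADS2 lay between -0.08 and 0.12 with vehicle and between -0.27 and 0.18 with 5-azacytidine.

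**Figure D4:**
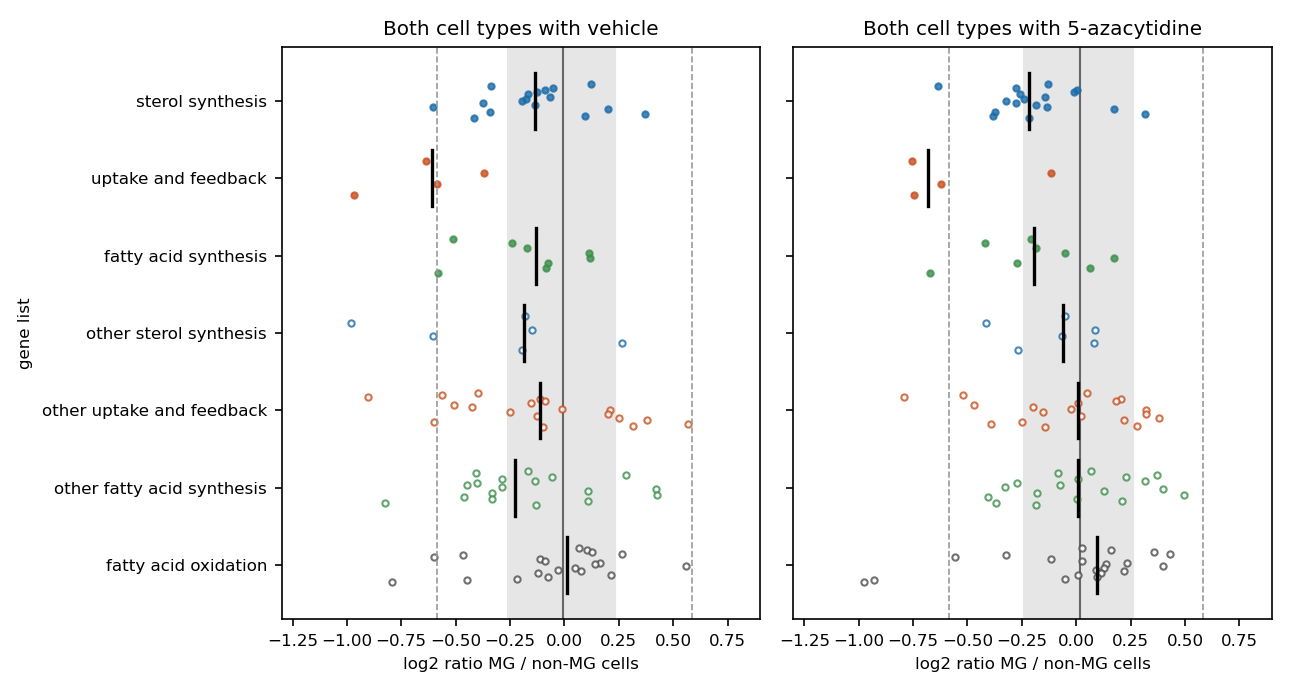
MG/non-MG log2 ratio for each gene of 7 lists, with vehicle (left) and 5-azacytidine (right); filled points are members, open points other pathway genes, black bars list medians, the grey band and line the middle quartiles and median of 15017 genes, and dashed lines mark 1.5-fold. The uptake and feedback members have medians of -0.61 and -0.68, left of the grey band in both panels, while the other uptake and feedback genes centre on -0.11 and 0.01.

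Further genes of these pathways, which are not among the 29, were taken from a list of pathway enzymes and regulators. Their counts stand beside 8.05% of the 15017 genes lower past 1.5-fold with vehicle and 7.13% with 5-azacytidine. The shares higher past 1.5-fold were 5.67% and 5.73%. Of 6 other sterol synthesis genes, 2 were lower in MG cells past 1.5-fold with vehicle and 0 with 5-azacytidine, with medians of -0.19 and -0.06. They were MSMO1, a sterol methyl oxidase, at -0.98 ± 0.06 with vehicle and -0.41 ± 0.05 with 5-azacytidine, and GGPS1, which makes geranylgeranyl diphosphate, at -0.60 ± 0.27 and -0.07 ± 0.31 on a dim probe. Of 20 other uptake and feedback genes 19 were retained, of which 2 were lower with vehicle and 1 with 5-azacytidine, and the medians were -0.11 and 0.01. INSIG2, the paralog of INSIG1, was at -0.90 ± 0.07 and -0.79 ± 0.07 as a mean of 2 probes, and ABCA1, a cholesterol exporter, at -0.60 ± 0.32 and -0.25 ± 0.27. Both INSIG genes were lower in MG cells with both treatments. Of 18 other fatty acid synthesis genes, LPIN1, a phosphatidate phosphatase, was lower with vehicle at -0.83 ± 0.09, and none passed with 5-azacytidine. Their medians were -0.23 with vehicle and 0.01 with 5-azacytidine, where 10 of the 18 were above 0. For 20 genes of fatty acid oxidation, the opposing pathway, the medians were 0.01 and 0.09, and 2 were lower past 1.5-fold in each comparison. None of these 63 genes was higher in MG cells past 1.5-fold with either treatment. Normexp reduced the vehicle ratio to -0.53 for MSMO1, -0.21 for GGPS1 and -0.22 for ABCA1, also read by a dim probe, all within 1.5-fold. After normexp INSIG2 was at -0.71 with vehicle and -0.53 with 5-azacytidine, and LPIN1 at -0.67 with vehicle.

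5-Azacytidine itself moved these genes little. In MG cells 1 of 29 members was lower past 1.5-fold than with vehicle (SC5D), where 2.09% of the 15017 genes were, and 0 were higher, where 2.95% were. In non-MG cells 0 members were lower, where 1.63% of genes were, and 0 higher, where 1.85% were. The members' median log2 ratio was -0.01 in MG cells and 0.0005 in non-MG cells, beside -0.02 and -0.04 for the 15017 genes. Of the members, 8 were above 0 in both cell types, 9 below 0 in both and 12 of opposite sign, where 25.9%, 37.9% and 36.2% of the 15017 genes were. Median centring changed these counts to 3, 17 and 9, beside 15.8%, 50.7% and 33.5% of genes, and normexp to 5, 16 and 8, beside 22.8%, 39.4% and 37.7%. The vehicle arrays also enter the MG/non-MG ratios above, so the 2 kinds of ratio are not independent.

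SC5D, which introduces a double bond into the sterol ring, was read by a dim probe, with intensities from 17.9 to 32.3. Its level was -1.71 in non-MG cells with vehicle, -2.05 in non-MG cells with 5-azacytidine, -1.61 in MG cells with vehicle and -2.43 in MG cells with 5-azacytidine. Both treated arrays lay under both vehicle arrays. The ratio of 5-azacytidine over vehicle was -0.82 ± 0.29 in MG cells, or 1.76-fold lower, and -0.34 ± 0.30 in non-MG cells. These errors are the largest among the members, and normexp reduced the ratio in MG cells to -0.21.

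HMGCS1 and IDI1 had the highest ratios of 5-azacytidine over vehicle in non-MG cells, at 0.36 ± 0.09 each. In MG cells HMGCS1 was at 0.07 ± 0.09 and IDI1 at 0.26 ± 0.08. SREBF2 was below 0 in both, at -0.30 ± 0.08 in MG cells and -0.26 ± 0.08 in non-MG cells, as was FADS2 at -0.22 ± 0.09 and -0.28 ± 0.10. The sterol synthesis genes had medians of 0.02 in MG cells and 0.08 in non-MG cells, both -0.02 under median centring, and the fatty acid synthesis genes of -0.13 and -0.11. STARD4 and INSIG1 were the members lower past 1.5-fold in MG cells with both treatments. Their ratios of 5-azacytidine over vehicle were 0.24 ± 0.11 and -0.15 ± 0.08 in MG cells. In non-MG cells they were 0.02 ± 0.10 and -0.03 ± 0.08.

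**Figure D5:**
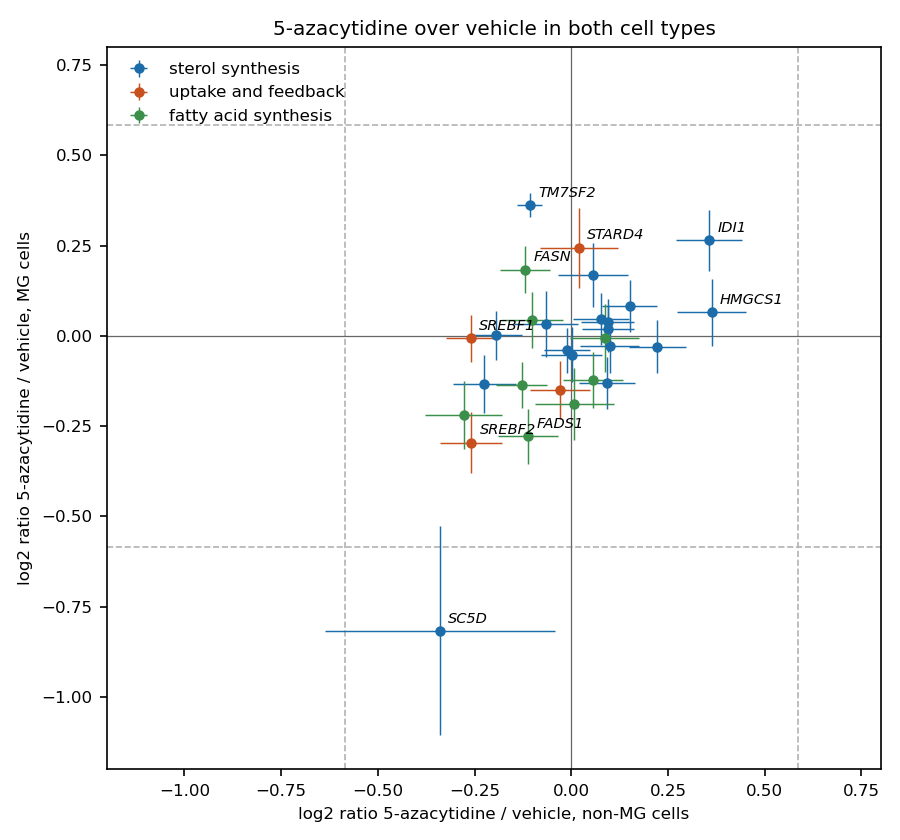
Log2 ratio of 5-azacytidine over vehicle in non-MG cells (horizontal axis) and in MG cells (vertical axis) for the 29 members, with bars for the spot error and dashed lines at 1.5-fold. All points but SC5D lie inside the dashed lines, and TM7SF2 lies at 0.36 in MG cells and -0.11 in non-MG cells.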

How the data were processed

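RNA (400 ng per array) was labelled with 1 dye and hybridized to 4 Agilent SurePrint G3 arrays, 1 per condition, grouped by the sample labels. The labels name RNAiso Plus for extraction and the methods an RNeasy kit. The authors deposited Feature Extraction 11.5.1.1 output, with linear background-corrected intensity per spot and no normalization between arrays, and a table of log2 values centred per probe. Differences between columns of that table equalled the log2 differences of intensity apart from a constant, within 0.01 for 100.0% of 24161 probes. Its columns have medians of 0.0133 (non-MG, vehicle), -0.0087 (non-MG, 5-azacytidine), 0.0066 (MG, vehicle) and -0.0115 (MG, 5-azacytidine). The scaling behind these values is not stated in the sources used here, but the constants were close to those of a shift by the 75th percentile. For MG over non-MG cells they were -0.1778 with vehicle and -0.3561 with 5-azacytidine, against -0.1815 and -0.3593 for that shift. For 5-azacytidine over vehicle they were 0.0331 in MG and 0.2114 in non-MG cells, against 0.0335 and 0.2112.

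Control spots and flagged outlier spots were left out, each log2 intensity was set against the 75th percentile of that array, and repeated spots were averaged. A probe was dropped if it fell in the bottom 20 percent on at least 2 arrays or rose above background on none. Of 23860 retained probes, 79.4% were matched by accession to a RefSeq symbol of GRCh38.p14, and the ratios of a gene's probes were averaged. The array was designed on an earlier build, so probe coordinates are not given. The members and gene lists were chosen with earlier results of these data known. Every member is accounted for. Array by array values were given for members past 1.5-fold in any comparison and for SREBF1 and SREBF2, and for EBP, FASN and LSS, which were added after their values were seen. Among other genes, those past 1.5-fold with both arrays well above background were named.

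Alternatives were normexp background correction (offset 50, on the median spot signal, since no mean spot signal was held), quantile normalization, median centring, no filter on dim probes, only probes above background on every array, raising low signals to the detection limit, the brightest probe, the authors' log2 table, and thresholds of 2-fold and 1.4-fold. The counting was tested on simulated data. The number of arrays limits the precision, and no slide effect could be fitted with 1 slide. Promoter sequences are those of RefSeq on GRCh38.p14. Normexp was run in limma 3.58.1 (R 4.3.3). All else was computed in Python 3.11.15 with pandas 2.3.3 and numpy 2.4.6, and plotted with matplotlib 3.10.9.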

Additional observations from a re-analysis of the deposited data

Results flagged for a closer look

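TM7SF2 was above 0 in the ratio of 5-azacytidine over vehicle in MG cells (0.36) and below 0 in non-MG cells (-0.11), each by more than 2 spot errors. The errors assigned by the scanner software were larger, 0.21 in MG cells and 0.21 in non-MG cells. Neither ratio reached 2 of those errors, and the ratio in non-MG cells was smaller than its own. The difference of 0.47 between the cell types was not tested, since each condition has 1 array. It lay between 0.36 and 0.53 under the other scalings and background corrections. The array of MG cells with vehicle, whose 10 spots of TM7SF2 had the widest spread (SD 0.18), enters this value.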

How the results depend on the processing

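Median centring, which raises the ratio of MG over non-MG cells by 0.20 with vehicle and 0.26 with 5-azacytidine for all genes, changed the most values, 82 of 116 member ratios by more than their spot error. It gave 1 member past 1.5-fold with vehicle and 0 with 5-azacytidine, and medians of 0.021 and 0.0385, with -0.10 for 5-azacytidine over vehicle in non-MG cells. Normexp moved 55 of 116 and gave 1 member with vehicle, 1 with 5-azacytidine (median -0.11) and 0 for 5-azacytidine over vehicle in MG cells. Quantile normalization gave 5 members with vehicle, adding SREBF2 and ACSS2, where 7.18% of the 15017 genes were lower. At 2-fold no member passed with vehicle, with 5-azacytidine or for 5-azacytidine over vehicle in MG cells (0, 0 and 0), and at 1.4-fold 6 passed with vehicle. The share of all genes was not computed at those thresholds. The filters, the detection limit and the authors' table moved 0 of 116. No value reversed its direction among those past 1.5-fold. The members' median minus that of all genes ran from -0.20 to -0.09 with vehicle and from -0.28 to -0.09 with 5-azacytidine over the scalings and filters tried. The causes were not tested. No paired analysis was possible because the labels carry no replicate numbers and each condition has 1 array. Dim members such as SC5D depend most on the background correction.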

Other observations

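PDK4, a kinase that restrains the entry of pyruvate into acetyl-CoA and favours fatty acid oxidation, was lower in MG cells with both treatments. Its level was -0.62 and -0.94 in non-MG cells with vehicle and with 5-azacytidine, and -1.42 and -1.92 in MG cells. The MG/non-MG log2 ratio was -0.79 ± 0.19 with vehicle and -0.98 ± 0.23 with 5-azacytidine. Its probe was dim, and normexp reduced these ratios to -0.38 and -0.37, within 1.5-fold. ACADS, an acyl-CoA dehydrogenase for short chains, was at -0.60 ± 0.29 and -0.56 ± 0.27 on a dim probe. Normexp reduced the ACADS ratios to -0.17 and -0.24. The other gene of that list past 1.5-fold with 5-azacytidine was PPARA at -0.93 ± 0.30, a mean of 2 probes, of which 1 was not well above background in MG cells. ABCG1, a sterol exporter, was at 1.02 ± 0.39 for 5-azacytidine over vehicle in non-MG cells, where the vehicle array was not well above background, and at 0.06 ± 0.32 in MG cells.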
